A study of Mus musculus with 2 samples.

Results

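The genes of 1 lysosomal pathway, 8 in all, were described in chromatin-associated RNA of mouse macrophages. They were Gpnmb, a transmembrane glycoprotein gene, the MiT/TFE transcription factor genes Mitf, Tfeb, Tfe3 and Tfec, folliculin (Flcn) and the folliculin-interacting protein genes Fnip1 and Fnip2. All 8 were found by their GENCODE M21 symbol, among 55536 genes in the gene table. The genes were chosen with their levels already known, among them the first rank of Gpnmb among protein-coding genes in the gene table, so those levels are a description and carry no test. The study held 2 libraries of 1 group. Bone marrow-derived macrophages of C57BL/6J mice, which are grown from marrow in culture, were at the 0 min point of lipid A at 100 ng/ml, and lipid A is the fatty anchor of endotoxin through which macrophages sense bacteria. RNA of the chromatin fraction was depleted of ribosomal RNA, and the input was 250 ng in replicate 1 and 500 ng in replicate 2. The libraries are labelled as biological replicates with the same donor entry, so the spread between them may be partly technical, and no stimulated group was analysed here.

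MiT/TFE factors are basic helix-loop-helix leucine zipper proteins that bind E-box sequences and switch on genes of lysosomes and autophagy. When nutrients are plentiful, Rag GTPases bring these factors to the lysosome, where the kinase mTORC1 phosphorylates them and they stay in the cytosol. Folliculin acts together with Fnip1 or Fnip2 on the Rag GTPases in this step, and the factors move into the nucleus when the step fails. Gpnmb is known as a target of Mitf and its relatives and as a marker of macrophages loaded with lipid or with stressed lysosomes.

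The start-site regions of Gpnmb and of Mitf are shown because the results turn on the level of Gpnmb and on which Mitf start is used. Each sequence is from RefSeq on GRCm38.p6 (mm10) and runs 5′ to 3′ from 250 bases before to 50 bases after an annotated start, with the transcribed 50 bases in capitals.
Gpnmb, chr6:49036268-49036567, plus strand: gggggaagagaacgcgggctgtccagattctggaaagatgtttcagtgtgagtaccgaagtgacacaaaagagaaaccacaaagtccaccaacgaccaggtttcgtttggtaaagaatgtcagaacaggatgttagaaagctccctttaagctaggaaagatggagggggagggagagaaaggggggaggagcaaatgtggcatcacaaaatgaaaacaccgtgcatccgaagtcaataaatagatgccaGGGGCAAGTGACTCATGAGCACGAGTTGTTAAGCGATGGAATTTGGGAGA
Mitf most 5′ start, chr6:97806808-97807107, plus strand: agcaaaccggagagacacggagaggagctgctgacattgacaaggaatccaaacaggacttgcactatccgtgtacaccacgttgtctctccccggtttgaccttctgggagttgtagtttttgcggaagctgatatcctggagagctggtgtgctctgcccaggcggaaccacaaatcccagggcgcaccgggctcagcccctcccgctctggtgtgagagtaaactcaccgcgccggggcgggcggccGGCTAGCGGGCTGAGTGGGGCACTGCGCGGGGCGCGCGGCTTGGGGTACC
Mitf second start, chr6:97929567-97929866, plus strand: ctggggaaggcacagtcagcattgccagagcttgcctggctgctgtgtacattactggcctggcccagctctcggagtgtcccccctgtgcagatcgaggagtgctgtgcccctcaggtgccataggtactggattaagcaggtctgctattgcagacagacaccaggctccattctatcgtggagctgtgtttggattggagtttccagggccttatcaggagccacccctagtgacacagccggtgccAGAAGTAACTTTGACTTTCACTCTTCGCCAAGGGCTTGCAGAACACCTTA
Mitf most 3′ start, chr6:97991533-97991832, plus strand: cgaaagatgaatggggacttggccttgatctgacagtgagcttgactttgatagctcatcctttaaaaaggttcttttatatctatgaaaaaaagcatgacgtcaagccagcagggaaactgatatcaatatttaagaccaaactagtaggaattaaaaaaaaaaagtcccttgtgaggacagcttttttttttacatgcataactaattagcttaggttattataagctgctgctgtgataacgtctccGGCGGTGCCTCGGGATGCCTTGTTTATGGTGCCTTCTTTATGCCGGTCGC
The most 5′ Mitf start is known for the widely expressed A form, and the most 3′ start for the M form of melanocytes. The 3 Mitf regions differed in base composition. The GC content was 62.7% at the most 5′ start, 55.7% at the second and 40% at the most 3′ start, against a median of 52.7% over all promoters in the table. The Gpnmb region had a GC content of 47.7%.

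The start-site regions of Fnip1 and Fnip2 are shown because they hold a sequence in common, which is in capitals, as is an E-box in Fnip1.
Fnip1, chr11:54437929-54438228, plus strand: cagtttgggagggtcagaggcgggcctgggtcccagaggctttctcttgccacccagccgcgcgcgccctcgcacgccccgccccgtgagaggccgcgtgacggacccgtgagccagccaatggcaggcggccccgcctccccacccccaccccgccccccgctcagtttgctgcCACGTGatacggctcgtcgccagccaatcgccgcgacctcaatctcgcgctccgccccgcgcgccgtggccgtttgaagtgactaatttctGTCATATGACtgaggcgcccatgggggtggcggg
Fnip2, chr3:79567630-79567929, minus strand: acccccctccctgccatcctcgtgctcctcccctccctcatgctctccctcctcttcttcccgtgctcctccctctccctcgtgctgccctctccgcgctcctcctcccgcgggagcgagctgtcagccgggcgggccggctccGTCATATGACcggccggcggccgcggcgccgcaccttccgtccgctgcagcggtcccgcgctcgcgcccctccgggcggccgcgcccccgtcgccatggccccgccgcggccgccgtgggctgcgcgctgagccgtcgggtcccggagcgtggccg
The palindrome GTCATATGAC began 16 bases after the Fnip1 start and 106 bases before the Fnip2 start (offset -106). It was in 14 of the 32851 promoters of the table, or 0.0426%. It is the longest palindrome, a run that reads the same on both strands, that windows of at least 2 of the 8 genes share. The search was made after these sequences had been read, so its presence in both genes is a description only. The E-box CACGTG, the core that MiT/TFE factors are known to bind, was in 1 of the 13 promoter windows of the 8 genes, that of Fnip1 at offset -75, against 7.15% of all promoters. The E-box CATGTG or its reverse complement CACATG was in 0 of 13 windows and in 14.2% of all promoters. The longer GTCACGTG or its reverse complement CACGTGAC, which contains CACGTG, was in 0 of 13 and in 2.25% of all promoters. A window without a match says nothing of more distant sites.

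The authors deposited a gene table and a first transcript table, both made from an alignment to annotated transcripts, and a second transcript table made from the reads. Levels are from the gene table and transcript shares from the first transcript table unless the second is named. Expected counts are the authors' estimates of reads per gene or transcript. The gene table held 10933708 expected counts on annotated genes in replicate 1 and 14168886 in replicate 2. All 8 macrophage markers were detected, which here means 1 TPM or more in both replicates, at mean levels of 13.7 TPM (Fcgr1) to 176 TPM (Lyz2). TPM divides reads by transcript length and scales each table to a fixed sum. Because Mitf and Gpnmb are also melanocyte and osteoclast genes, and Mitf a mast cell gene, markers of those cells were read beside them. None of 8 melanocyte markers was detected. Their summed level was 0.77 TPM in replicate 1 and 0.44 TPM in replicate 2, with Tyr, Tyrp1, Oca2 and Slc45a2 at 0 in both. Of 9 osteoclast markers 2 were detected, Nfatc1 at 18.7 TPM and Itgb3 at 3.45 TPM, both of which other myeloid cells also express. Acp5, which osteoclasts are defined by, had 0.13 TPM, Calcr and Ocstamp were listed at 0, and the list summed to 22.2 and 25.5 TPM. None of 8 mast cell markers was detected, with 5 at 0 and sums of 0.43 and 0.62 TPM. T cell, B cell, neutrophil and fibroblast markers gave 0 detected of 4, 4, 6 and 5, and dendritic and endothelial markers 1 of 5 (Zbtb46) and 1 of 4 (Kdr). The second transcript table gave more of these markers a level. There 1 melanocyte, 4 osteoclast, 1 mast cell, 2 T cell, 1 neutrophil, 1 fibroblast, 2 dendritic and 2 endothelial markers were detected, and no B cell marker. Among them Dct had 2.08 and 2.84 TPM, Ocstamp 2.25 and 3.33 TPM and Cd3d 8.34 and 10.8 TPM. The melanocyte list summed to 3.09 and 4.01 TPM, the osteoclast list to 18.8 and 31.6 TPM and the mast cell list to 1.89 and 2.43 TPM in that table.

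Gpnmb had 1316 TPM in replicate 1 and 1520.3 TPM in replicate 2, a mean of 1418 ± 145 TPM (SD, n = 2), which ranked 1 among 22015 nuclear protein-coding genes. In the second transcript table it had 1036 and 1935 TPM and ranked 2 by the mean, behind Lgals3, a lectin gene, with 1181 and 1807 TPM. These values rested on 28300 and 49200 expected counts. The gene (ENSMUSG00000029816.10) lies on the plus strand of chromosome 6 at 49036546 to 49070929. The 3 genes nearest to it in level and retained-intron share were sought among 7267 genes, compared on log2 mean TPM and on the share divided by 10. As Gpnmb ranked 1, these 3 genes could only lie below it in level. These were Stab1, a macrophage scavenger receptor, at 757 TPM, Srsf5, a splicing factor, at 559.8 TPM, and Hnrnpa2b1, an RNA-binding protein, at 818 TPM. Their distances from Gpnmb were 1.26, 1.34 and 1.72, against 0.0519 to 0.0787 for the 3 genes nearest to Tfec, so none was close. With 2 libraries of 1 group there is no pattern across samples, and being nearest says nothing of shared control.

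**Figure D1:**
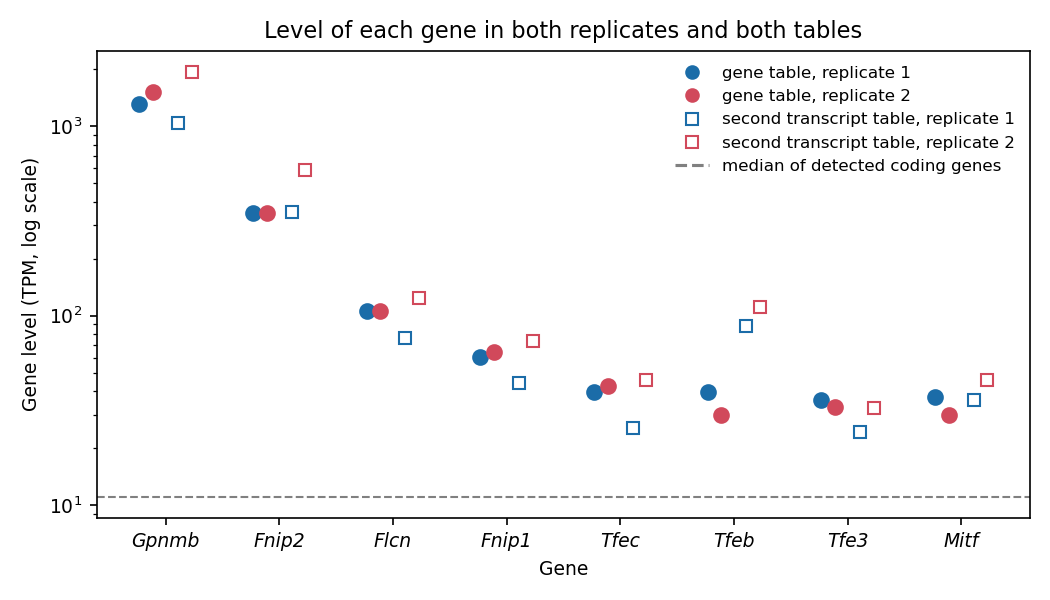
Level of each of the 8 genes in TPM on a log axis, with filled circles for the gene table and open squares for the second transcript table, and 1 point per replicate. Gpnmb lies highest in both tables, the 4 MiT/TFE genes lie close to one another in the gene table, and Tfeb lies higher in the second table.

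The folliculin group followed. Fnip2 had 349 TPM in replicate 1 and 349.1 TPM in replicate 2, from 10866 and 17757 expected counts, and ranked 32. Flcn (ENSMUSG00000032633.12, chromosome 11, minus strand, 59791408 to 59810016) had 105.7 and 105.5 TPM and ranked 364. Fnip1 (ENSMUSG00000035992.15, chromosome 11, plus strand, 54438199 to 54518235) had 60.6 and 64.5 TPM and ranked 830. Fnip2 (ENSMUSG00000061175.11, chromosome 3, minus strand, 79455974 to 79567796) thus had more chromatin RNA than Fnip1, while protein was not measured. The TPM of Fnip2 was 5.76 times that of Fnip1 in replicate 1 and 5.42 times in replicate 2. The size of this ratio depended on how length was counted, with 2.88 ± 0.0576 per kb of merged exons and 2.51 ± 0.00558 over basic protein-coding transcripts, the annotation's set of representative coding models (SD, n = 2 each). Fnip2 was the higher in both replicates on all of these scales. The summed level of Fnip1 and Fnip2 was 3.87 and 3.92 times that of Flcn.

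The 4 transcription factor genes were near one another. Tfec, known in mouse mainly from macrophages, had 39.5 and 42.4 TPM in replicates 1 and 2. Tfeb, the best known regulator of lysosome genes, had 39.6 and 29.9 TPM. Tfe3 had 35.97 and 32.8 TPM. Mitf, the regulator of pigment cells that also acts in osteoclasts and mast cells, had 37.3 and 29.8 TPM. The replicates of Tfeb, Tfe3 and Mitf overlapped one another, so the order of these 3 was within the spread between replicates. Those of Tfec overlapped with Tfeb and lay above those of Tfe3 and Mitf. All 4 lay above the 25.4 TPM of the upper quartile of detected protein-coding genes. From Gpnmb through Fnip2, Flcn and Fnip1 to Tfec, by contrast, each gene was higher in both replicates than the next. On basic protein-coding transcripts alone Fnip1 (46.2 and 49.0 TPM) and Flcn (42.5 and 49.1 TPM) overlapped.

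The genes lie on 5 chromosomes. Tfec (ENSMUSG00000029553.10, minus strand, 16833373 to 16898441) and Mitf (ENSMUSG00000035158.15, plus strand, 97807052 to 98021349) are on chromosome 6 with Gpnmb. Tfeb (ENSMUSG00000023990.18) is on the plus strand of chromosome 17 at 47737030 to 47792419. Tfe3 (ENSMUSG00000000134.17) is on the plus strand of chromosome X at 7762560 to 7775202. Counting rested on fewer reads for the factors, from 436 and 488 expected counts for Tfeb to 1165 and 1717 for Tfe3.

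All 8 genes were detected, against 46.7% of the 22015 protein-coding genes (10284 genes), and nothing is read from this since the genes were selected on their level. Gpnmb had 8.64 times the summed TPM of the 4 MiT/TFE genes in replicate 1 and 11.3 times in replicate 2. In the second transcript table this ratio was 5.98 and 8.23, and over basic protein-coding transcripts 15.1 and 21.01. The summed MiT/TFE level was 152 and 135 TPM. Of this sum Tfec made up 28.7% ± 3.93, Tfeb 24.1% ± 2.73, Tfe3 24.0% ± 0.515 and Mitf 23.3% ± 1.71 (SD, n = 2 each).

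Which factor was highest depended on the table and on the length used. In the second transcript table Tfeb had 87.8 and 111 TPM, above Mitf with 35.95 and 45.9, Tfec with 25.4 and 45.7 and Tfe3 with 24.2 and 32.6 TPM. Tfeb then made up 48.9% ± 2.45 of the summed MiT/TFE level. Per kb of merged exons Tfeb was the lowest, at 11.9 and 9.52 on counts per kb scaled to the protein-coding counts of the library, against 22.2 and 20.3 for Mitf. Tfeb has 15 annotated transcripts, of which 8 are coding models outside the basic set, most of them short. These 8 held 66.5% and 67.2% of its TPM in the second transcript table, against 34.4% and 23.5% in the first. Over basic protein-coding transcripts, Mitf had 16.7 and 14.4 TPM and Tfeb 17.04 and 13.4 TPM. Tfec had 7.28 and 5.97 TPM on that scale, and Tfe3 1.45 and 2.26 TPM.

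Between the replicates all 8 genes differed by less than 2-fold. The log2 ratio of replicate 2 over replicate 1, on expected counts scaled for library size by the TMM method, was 0.30 for Gpnmb (SE from counting error alone, 0.011) and 0.21 for Fnip2. It was 0.18 for Tfec, 0.17 for Fnip1, 0.06 for Tfe3, -0.02 for Flcn and -0.15 for Mitf. Tfeb had the largest ratio in size, -0.34 (counting SE 0.095). None of the 8 genes differed by 2-fold or more, against 0.373% of the 10984 genes whose mean count was 50 or higher (41 genes). The quartiles over those genes were -0.14 and 0.15, and the central 95% lay between -0.51 and 0.52. The ratios of Gpnmb, Fnip2, Tfec, Fnip1, Mitf and Tfeb lay outside the quartiles and within the central 95%. In size, the ratio of Tfeb was above that of 84.4% of those genes, and the ratio of Gpnmb above that of 79.3%. In the second table all 8 TPM values were higher in replicate 2, by 0.34 to 0.90 on the log2 scale. There the median of 10275 detected protein-coding genes was itself higher in replicate 2 by 0.58, and 98.3% of them were, so levels in that table are not comparable between replicates without rescaling.

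Chromatin RNA includes RNA that has not finished splicing, and many reads of these genes fell on transcript models that keep intron sequence. The retained-intron share is the part of a gene's TPM on transcripts annotated as retained intron. Intron reads of such a transcript may come from a retained intron or from RNA not yet spliced, and these cannot be told apart here. These transcripts also contain exon sequence, so reads of spliced RNA can be assigned to them as well. The share is therefore not the part of a gene's RNA that keeps an intron. Of the 8 genes, 7 have such a transcript, and Fnip1 has none. The share was 50% or more in 5 of 7, against 48.1% of 5042 protein-coding genes with such a transcript and at least 100 counts in each replicate (2426 genes). By expected counts 2 of 7 passed, against 30.5% of those genes, and 3 of 7 passed in the second transcript table, against 44.4%. The quartiles of the share of TPM over those genes were 32.3%, 49.0% and 63.9%.

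Tfe3 stood highest, with a share of 91.5% in replicate 1 and 89.2% in replicate 2, above 98.4% of the 5042 genes. Fnip2 had 61.1% and 60.2%, Flcn 57.3% and 50%, Mitf 55.1% and 51.7%, and Tfec 52.1% and 56.0%, all between the lower and the upper quartile. Gpnmb had 47.5% and 41.8%, a mean of 44.6% ± 4.03, and 43.2% of genes were lower. Tfeb had 22.7% and 31.7%, the lowest, below the lower quartile in both replicates. The replicates of Flcn, Mitf and Tfec overlapped, and those of Fnip2 lay above all 3.

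**Figure D2:**
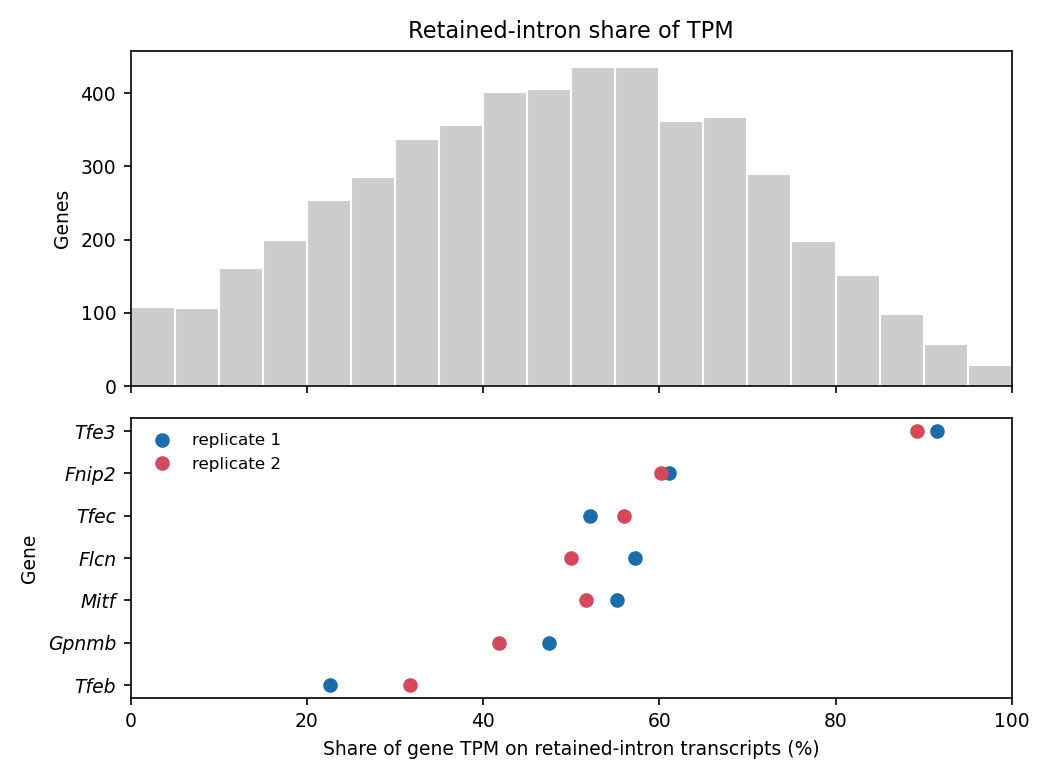
Retained-intron share of TPM, in percent. The upper panel counts 5042 protein-coding genes in steps of 5 percentage points, and the lower panel gives 7 of the genes with 1 point per replicate. Tfe3 lies at the upper end, Tfeb at the lower, and the other genes in the middle of the distribution.

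TPM gives short models much weight, and the split by reads was different. By expected counts, 20.5% of Gpnmb, 25.1% of Mitf, 7.60% of Tfeb and 36.2% of Fnip2 were on retained-intron transcripts, all lower than by TPM. For Tfec the share by counts was higher, 75.1% ± 1.40, and for Tfe3 94.9% ± 1.21 (SD, n = 2 each). Flcn had 49.7% by counts. Basic protein-coding transcripts held 88.5% of the counts of Fnip1, 80.1% of Tfeb, 79.1% of Gpnmb, 74.9% of Mitf, 62.8% of Fnip2 and 49.7% of Flcn. They held 16.98% of Tfec and 4.70% of Tfe3, where the median over the 5042 genes was 58.0% (quartiles 34.1% and 79.8%). Only 2.70% of those genes had a lower share than Tfe3, and 9.996% a lower share than Tfec. This split by basic transcripts was added after values had been seen.

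**Figure D3:**
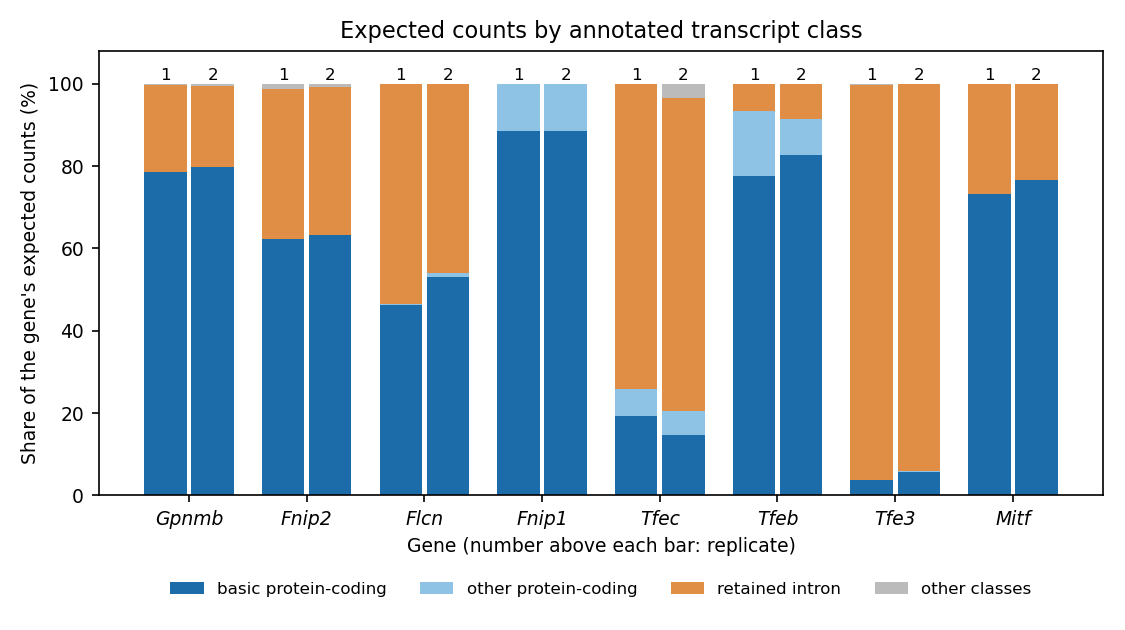
Share of each gene's expected counts, in percent, by annotated class of transcript, with 1 bar for each replicate as numbered above it. Retained-intron models hold most counts of Tfe3 and Tfec in both replicates, and basic protein-coding models most counts of Fnip1, Tfeb, Gpnmb, Mitf and Fnip2.

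For Tfe3, 2 long retained-intron models took most reads. Tfe3-208, a model of 6328 bases of which 3459 lie in introns of the main coding transcript, held 645 and 898 counts in replicates 1 and 2. Tfe3-212, which spans introns 3 and 9 in full, held 412 and 652 counts. The main coding transcript Tfe3-201 had 0 counts in both replicates, but only 6 of its bases are in no other Tfe3 transcript, so a spliced read can rarely be given to it alone. All 7 basic coding transcripts together held 42.4 and 98.8 counts.

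For Tfec the retained-intron model Tfec-203, with 2779 bases in intron 4, held 412 and 673 counts, against 117 and 143 counts on the main coding transcript Tfec-201. Other Tfec reads fell on Tfec-202, a retained-intron model in intron 2 with 36.8 and 68.5 counts, and on Tfec-204, a model of 1 exon with 510 of its 572 bases in intron 6, with 40 and 57 counts. Intron sequence was thus counted along the gene and not in 1 intron.

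For Gpnmb, the full-length coding transcript Gpnmb-201 held 20701 and 36957 counts, or 74.1% ± 1.39 of the gene (SD, n = 2). The retained-intron model Gpnmb-205, with 1585 of its 1832 bases in intron 1, held 4573 and 7707 counts. Gpnmb-204, a model of 645 bases with 250 in intron 6, held 1457 and 2003 counts. Because it is short, Gpnmb-204 was given 347 and 322 TPM, against 577 and 689 TPM for Gpnmb-201, which had over 10 times its counts. On basic coding transcripts alone the Gpnmb level was 644 and 756 TPM.

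Among the folliculin genes, the main coding transcript Fnip1-201 held 2881 and 4570 counts. Fnip1-202, a coding model that starts 26.4 kb downstream with 864 bases in intron 1, held 372 and 598. Fnip2-203 held 5072 and 8990 counts and the main coding transcript Fnip2-201 held 1695 and 2236. The retained-intron models Fnip2-206, with 55 bases of intron 7, and Fnip2-205, with 457 bases of intron 14, held 2122 and 3344 counts and 1608 and 2736 counts. Only 55 bases set Fnip2-206 apart from spliced models, so most of its reads are shared out by the authors' estimate. Flcn-205, which differs by 311 bases of intron 9, held 1560 and 1862 counts, about as many as the main coding transcript Flcn-203 with 1321 and 1474. Flcn-203 has 71 bases that are in no other Flcn transcript, so this split also rests mostly on the authors' estimate.

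Transcripts whose annotated 5′ ends lie within 200 bases of the next were joined into 1 start-site group, and each group's part of the gene's TPM was taken as the use of that start. Mitf has 4 such groups over 184.7 kb. The most 5′ group, the first Mitf sequence above, held 91.1% and 94.0% of Mitf TPM. Most of this, 55.1% and 51.7% of Mitf TPM, was on the retained-intron model Mitf-206. That model has 880 of its 1360 bases in introns 1 and 2. Mitf-206 ends downstream of the starts at 122.7 and 133.9 kb, so its intron reads do not by themselves show the most 5′ start. With protein-coding transcripts only, the group held 80.2% and 87.5%. The group 122.7 kb downstream, the second sequence above, was at 0 in both replicates, and a group at 133.9 kb held 4.56% and 4.63%. The most 3′ group, the start of the M form, held 4.34% and 1.41%, from 16.9 and 8.21 counts. In the second table this group held 26.1% and 23.2%, the group 122.7 kb downstream 8.73% and 10.2%, and the most 5′ group 62.4% and 63.1%. The most 5′ group was the highest in both tables, whereas the shares of the M start and of the group 122.7 kb downstream depended on the table. Each transcript of the M start has 27 bases or fewer of its own, counted against the other transcripts of that start as well. This limits the split within the group and does not measure how well the group's share is known. Mitf-201 of that start has 162 bases in intron 2 of the main coding transcript. Beside the share of the M start in the second table, the melanocyte gene Dct had 2.08 and 2.84 TPM there. Pmel had 0.39 and 0.38 TPM, Tyr 0.22 and 0.44, Mlana 0.24 and 0.14 and Sox10 0.16 and 0.20 TPM. Tyrp1, Oca2 and Slc45a2 were at 0. In the gene table Dct had 8 and 2 counts. The part of these genes in that share was not tested.

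**Figure D4:**
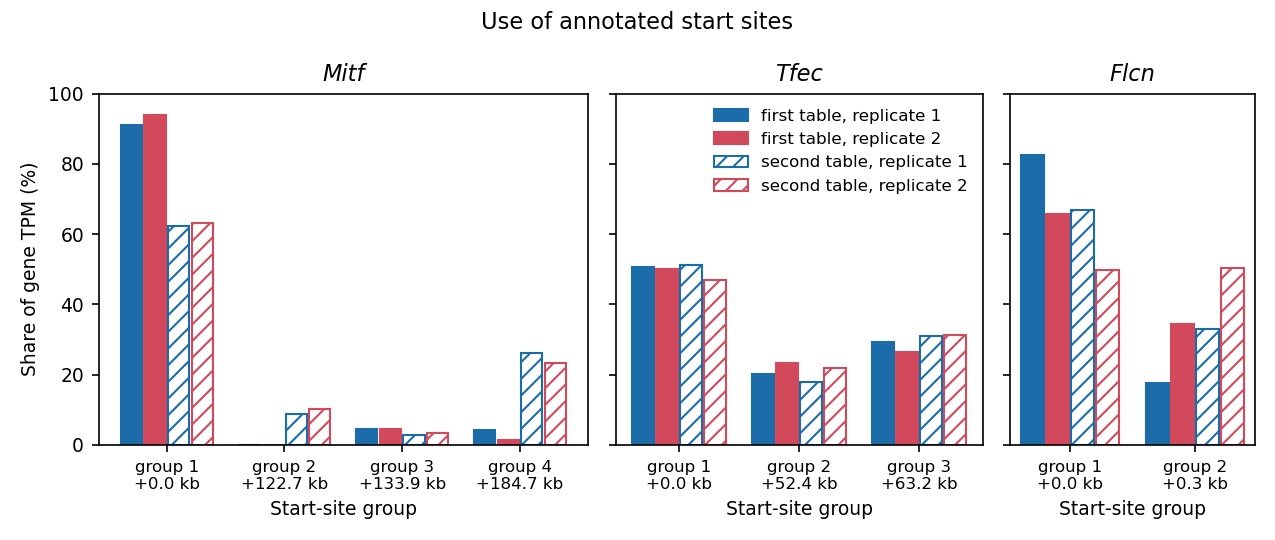
Share of gene TPM, in percent, by start-site group for Mitf, Tfec and Flcn, with the distance of each group from the most 5′ start in kb. Filled bars are the first transcript table, hatched bars the second, and blue and red the 2 replicates. The most 5′ group of Mitf is highest in both replicates of both tables, and the Flcn split differs between replicates.

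In Tfec the most 5′ group held 50.5% and 50.2% of TPM, and 87.3% and 87.1% of counts. Of the 528 and 849 counts of this group, 412 and 673 were on the retained-intron model Tfec-203, with 2779 bases in intron 4. Both other groups begin 52.4 and 63.2 kb downstream and contain the intron-bearing models Tfec-202 and Tfec-204. In Gpnmb the most 5′ group held 73.6% and 78.8% of TPM and 94.9% and 95.9% of counts, and the other group is the intron-bearing model Gpnmb-204 alone. In Fnip1 the most 5′ group held 76.3% and 76.0%, and in Fnip2 57.6% and 55.7%. A share on a downstream group that holds only intron-bearing models does not by itself show a start there. Intron reads of models in a most 5′ group, such as Tfec-203, do not by themselves show that start either.

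Flcn differed between replicates. Its most 5′ group held 82.4% of TPM in replicate 1 and 65.7% in replicate 2, while the gene's level was 105.7 and 105.5 TPM. The other group starts 305 bases downstream. The difference came from Flcn-202, with 68.3 counts in replicate 1 and 756.5 in replicate 2. Flcn-202 has no base that is not in another Flcn transcript, and the second table gave it 701 and 2054 counts. No test of this difference is possible with 1 library each.

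Tfeb was spread over 14 start-site groups. The group of Tfeb-203 at 1.87 kb held 20.8% and 17.1% of TPM and had the highest mean. The group of the retained-intron model Tfeb-210 at 52.4 kb held 15.2% and 19.7%, which was the highest in replicate 2. In the second table the group of Tfeb-206 at 22.1 kb was the highest, with 13.9% and 15.6%, and that of Tfeb-203 held 9.89% and 9.36%. The most 5′ group held 9.54% and 10.8%, the group at 0.898 kb 6.33% and 11.6%, and the group of the main coding transcript Tfeb-201 at 48.7 kb held 6.33% and 5.22%. By counts the group of Tfeb-203 was the highest, with 33.9% and 28.1%. Tfe3 had 4 groups, of which the most 5′ held 43.2% and 49.4% of TPM, the group of Tfe3-208 28.4% and 29.0%, the group of the retained-intron model Tfe3-210 22.8% and 15.1%, and the alternative coding start at 1.38 kb 5.53% and 6.52%. By counts the order of the first pair turned, with 55.4% and 52.3% on the group of Tfe3-208 and 40.2% and 43.7% on the most 5′ group. Of the 468 and 751 counts of that most 5′ group, 412 and 652 were on the retained-intron model Tfe3-212. Its reads in introns 3 and 9 do not by themselves show the most 5′ start.

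Few counts were assigned to overlapping genes. Gm3513, a sense intronic gene inside Fnip2, had 240 and 334 counts, against 10866 and 17757 for Fnip2. Gm15531, a pseudogene inside Mitf, had 16 and 20 counts, Gm17359 on the other strand of Fnip2 had 3 and 1, and Gm24198 inside Fnip1 had 0. Gm3513 lies on the same strand as Fnip2, and no source used here says whether counting used strand. Reads of overlapping genes therefore cannot be told apart.

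The other genes of the pathway were read from lists. The median level over detected protein-coding genes was 11.1 TPM, and that over all 22015 was 0.72 TPM. Each list is given by how many of its genes were detected, against 46.7% of protein-coding genes, and by its median of mean TPM.

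Genes of the lysosome and of autophagy, among which known targets of these factors are many, had medians above that of detected genes. Of 35 genes of lysosomal enzymes and membrane proteins 34 were detected, with a median of 63.5 ± 0.707 TPM (SD of the medians of 2 replicates). Psap, the saposin precursor, had 835 ± 136 TPM, the proteases Ctsb and Ctsa 572 ± 89.4 and 434 ± 6.14 TPM, and the osteoclast protease Ctsk, the 1 gene not detected, 0.99 and 1.32 TPM. All 18 subunits of the V-ATPase, the lysosomal proton pump, were detected, with a median of 56.5 ± 1.05 TPM. Tcirg1 had 887 ± 136 TPM, Atp6v0a1 299 and Atp6v1b2 221 TPM, and the lowest were Atp6v0a2 at 13.3 and Atp6v1f at 6.31 TPM. Of 25 autophagy genes 24 were detected, and their median was 24.7 ± 0.318 TPM, led by Tecpr1 at 455, Vmp1 at 159 and Sqstm1 at 96.6 TPM. Wipi1 had 3.57 TPM, and Map1lc3a, not detected, had 2.03 and 0.76 TPM. Gpnmb lay above all of these genes in both replicates.

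The genes that act on the factors had list medians of 4.91 to 25.2 TPM. The medians of the kinase and mTORC1 lists also lay above the 11.1 TPM of detected genes, and those of the Rag and AMPK lists below it. That of the GATOR list lay near it, at 11.66 TPM in replicate 1 and 10.8 TPM in replicate 2. A median above that of detected genes was thus not particular to genes of the lysosome and of autophagy. Of 10 Rag GTPase and Ragulator genes 9 were detected, and their median was 4.91 ± 0.810 TPM, and Rragb was not, at 0.32 TPM. Slc38a9, an arginine sensor, had 57.6 TPM, Lamtor3 56.9, Rragc 39.0 and Rraga 3.15 TPM. All 9 mTORC1, Rheb and TSC genes were detected, and their median was 18.3 ± 3.17 TPM, from Rptor at 55.5, Tsc1 at 46.3 and Tsc2 at 44.7 to Deptor at 3.96 and Tbc1d7 at 2.60 TPM. All 8 GATOR genes, which signal amino acids to the Rag GTPases, were detected, and their median was 11.2 ± 0.590 TPM. Depdc5 had 33.5, Nprl3 32.5, Sec13 24.2, Mios 5.37 and Wdr59 5.09 TPM. Of 7 subunits of the energy sensor AMPK 6 were detected, with a median of 8.61 ± 0.806 TPM. Prkag2 had 23.1, Prkag1 18.6, Prkab1 17.04 and Prkag3 2.46 TPM, while Prkaa2 was at 0.02. All 19 genes of kinases, calcineurin subunits, phosphoserine-binding adaptors and the nuclear exporter were detected, with a median of 25.2 ± 3.49 TPM. Akt1 had 74.6, Xpo1 65.2, Ppp3ca 57.6, Ppp3cc 4.15 and Sfn 2.69 TPM. In the gene table Fnip2 and Flcn lay above every gene of these 5 lists in both replicates. In the second table Fnip2 still did, while Flcn, at 76.4 and 124 TPM, was below Akt1 (97.1 TPM) in replicate 1 and below Rragc (147 TPM) in replicate 2.

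**Figure D5:**
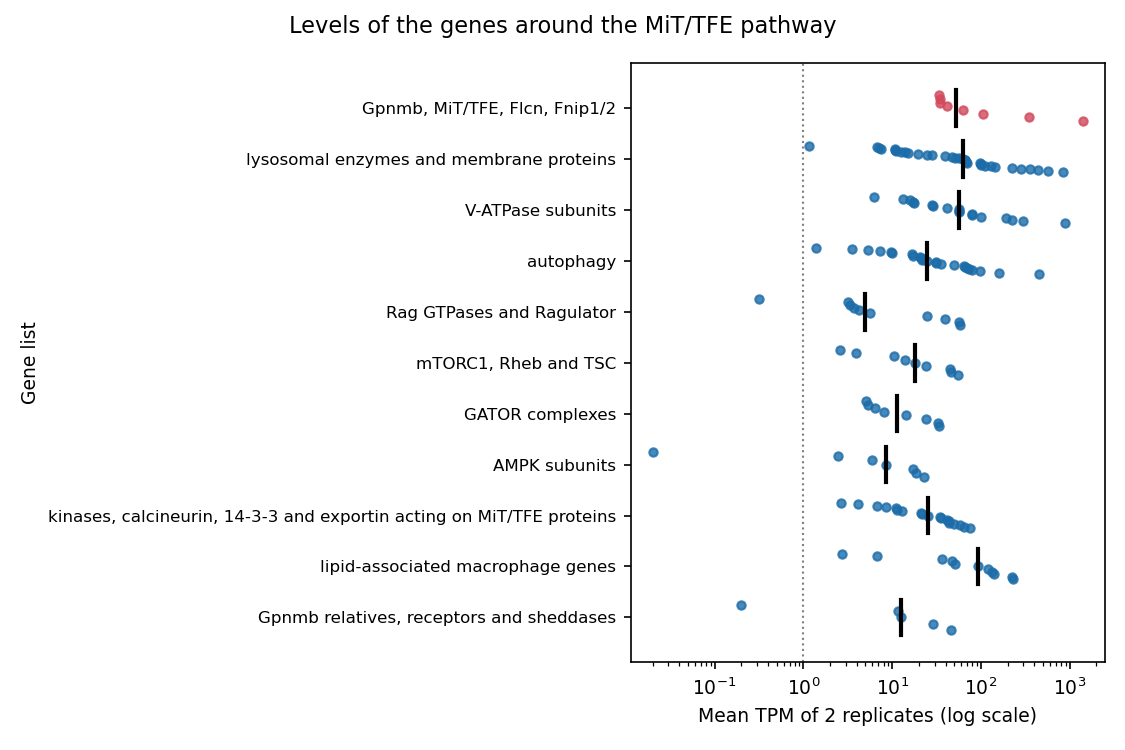
Mean TPM of 2 replicates on a log axis for the 8 genes, in red, and for the genes of 10 lists, in blue, with black bars at the medians and a dotted line at 1 TPM. The lysosomal, V-ATPase and lipid-associated lists have the highest medians, and the Rag GTPase and Ragulator list the lowest.

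All 11 genes that mark lipid-associated macrophages were detected, with a median of 91.8 ± 33.2 TPM. Plin2, a lipid droplet protein, had 228, Lgals3, the lectin gene, 224, and Lpl, a lipase, 140 TPM, and Cd9 and Itgax were lowest at 6.79 and 2.71 TPM. In the second table Lgals3 was the highest of the list by far, at a mean of 1494 TPM. Of 5 genes of Gpnmb relatives, receptors and sheddases 4 were detected. Cd44, a receptor known to bind Gpnmb, had 45.6 TPM, the sheddases Adam17 and Adam10 had 29.1 and 12.4 TPM, and Sdc4 had 11.6 TPM. Pmel, the melanocyte relative of Gpnmb, had 0.26 and 0.14 TPM. The MiT/TFE gene Tfec was nearest in level and retained-intron share to Ccdc84 at 40.2 TPM, Capn2, a calpain, at 42.8 TPM and Dpep2, a dipeptidase, at 39.3 TPM.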

How the data were processed

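RNA of the chromatin fraction was sequenced in 2 libraries of 1 group. The authors, per the notes they deposited, made a gene table and a first transcript table from an alignment to GENCODE M21 transcripts on mm10, and a second transcript table from the reads. No source used here names their tools. An expected count in the deposited tables is an estimate of the reads of a gene or transcript, in which reads that match several are divided among them. The deposited TPM values divide these by effective length. Fragments were 250 to 400 bases, per the labels. The phiX control entry, 0.338% and 0.270% of gene table counts, and spike-in entries were left out.

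Expected counts were rounded and analysed in R 4.3.3 with edgeR 4.0.16, with DESeq2 1.42.0 as an alternative. The common dispersion over 14576 genes was 0.00955. Log2 ratios are of TMM-scaled counts plus 0.5. Python 3.11.15, numpy 2.4.6, pandas 2.3.3, scipy 1.17.1 and matplotlib 3.10.9 did the rest. By counting error, a gene at 0 may have up to 3 counts, which is 0.274 RPM in replicate 1 and 0.212 RPM in replicate 2. The scaling and the spread were tested on simulated counts. The arithmetic of the start-site groups and the shares was checked on made-up transcripts, which does not test how reads were assigned to transcripts. No condition was compared, so no p-value is given. The genes and lists were chosen with earlier results of these data known. All 8 genes were named, and of each pathway list the 3 highest, the 2 lowest and the undetected genes, and 3 genes nearest to Gpnmb and to Tfec, except for 1 list gene that is not reported here. Promoters were matched by symbol, 13 for the 8 genes. Alternatives were the second table, the deposited posterior mean, other length scales, thresholds and scalings. A planned comparison of protein sequences was not run.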

Additional observations from a re-analysis of the deposited data

How the results depend on the processing

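Among the 8 genes, Gpnmb was first and Fnip2 second on each of the 5 other scales of level tried, while the values moved. Of these scales, rescaling to protein-coding genes divides all genes of a library by 1 number, so it cannot change their order in a replicate. Rescaled to protein-coding genes, TPM was 5602 for Gpnmb, 1376 for Fnip2, 416 for Flcn, 247 for Fnip1, 162 for Tfec, 136 for Tfeb, 135 for Tfe3 and 132 for Mitf. Per kb of merged exons, a scale added after seeing the data, the values were 754, 218, 107.6, 75.5, 18.01, 10.7, 20.0 and 21.3. On basic protein-coding transcripts only, also added later, TPM was 699.8, 119, 45.8, 47.6, 6.63, 15.2, 1.86 and 15.6 in that order of genes. The deposited posterior mean was 317 for Fnip2, 96.9 for Flcn, 56.9 for Fnip1 and 37.8 for Tfec. The second table gave 468 for Fnip2, 100.4 for Flcn, 58.8 for Fnip1, 35.5 for Tfec, 99.4 for Tfeb, 28.4 for Tfe3 and 40.9 for Mitf. Its retained-intron shares were 35.4% for Gpnmb, 42.7% for Mitf, 12.1% for Tfeb, 85.9% for Tfe3, 45.3% for Tfec and 51.5% for Fnip2. By counts these were 20.5%, 25.1%, 7.60%, 94.9%, 75.1% and 36.2%. The number of genes with a share of 50% or more was then 3 in the second table and 2 by counts, in place of 5. For the start-site group that had the highest mean share in the first table, the share in the second table was 62.7% for Mitf, 9.62% for Tfeb (where another group, at 14.7%, was highest), 52.1% for Tfe3, 49.0% for Tfec, 58.3% for Flcn, 63.6% for Fnip1 and 47.5% for Fnip2. By counts it was 95.4% for Gpnmb, 95.02% for Mitf, 31.0% for Tfeb, 42.0% for Tfe3 (where another group, at 53.8%, was highest), 87.2% for Tfec, 88.2% for Flcn, 88.5% for Fnip1 and 64.7% for Fnip2. With protein-coding transcripts only it was 100% for Gpnmb and Fnip2, 83.8% for Mitf, 25.9% for Tfeb, 35.7% for Tfe3 and 36.7% for Tfec. Other groups then led, with 64.3% for Tfe3 and 63.3% for Tfec. That Tfe3 group held 15.7 and 36.3 counts in all, and the 408-base model Tfe3-214 in it 2.65 and 3.39. That Tfec group is Tfec-204 alone, annotated as coding, with 510 of its 572 bases in intron 6 and 40 and 57 counts. Neither share by itself shows a start there. Joining starts within 50 bases gave 55.4% for Gpnmb, 30.1% for Tfe3, 38.5% for Flcn and 34.96% for Fnip2, and within 1000 bases 39.6% for Tfeb and 100% for Flcn. The log2 ratio of replicate 2 over replicate 1 in the second table was 0.33 for Gpnmb, 0.051 for Flcn, 0.22 for Fnip1 and 0.24 for Fnip2, and for Gpnmb 0.31 with DESeq2 size factors or with no filter. With a mean of at least 10 counts, 433 genes passed 2-fold in place of 41, among a larger number of low-count genes. List medians in the second table were 60.1 TPM for lysosomal, 68.1 for V-ATPase, 30.6 for autophagy, 8.22 for Rag GTPase and Ragulator, 25.2 for mTORC1, 12.4 for GATOR, 6.67 for AMPK, 42.1 for kinase, calcineurin and adaptor, 65.0 for lipid-associated and 16.5 for Gpnmb relative and sheddase genes. The cause of the other changes was not tested. Leaving out 1 replicate leaves the value of the other, which the text prints. No paired analysis was possible because there is only 1 group. Depth limits the factors most, at 436 to 1717 counts, and the short models that hold few of their own bases.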
